A study of Mus musculus with 4 samples.

Results

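Interferon-stimulated genes and genes of class I antigen presentation were followed in cultured mouse oesophageal cells with and without E79Q, an amino acid change in the NRF2 transcription factor (gene Nfe2l2). The 39 genes were chosen by name, by their known roles, with earlier results of these data known. All 39 have a row in the deposited table of 24444 genes. Poly(A) RNA was sequenced in 2 groups of 2 libraries. The wild-type cells carried no CRISPR/Cas9 cassette and received no treatment, and the E79Q cells were heterozygous and came from microinjection of a CRISPR/Cas9 Nfe2l2-E79Q cassette. Both groups were on the C57BL/6J strain, and every column heading carries the word SV40, which the labels do not explain. The sources used here do not give the age of the mice, whether the 2 libraries of a group came from separate animals or cultures, or whether any recombinase was used. The p-values therefore measure the spread between these libraries, which may be technical.

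Interferons are secreted proteins that signal through paired receptors and JAK kinases to STAT transcription factors. Type I and type III interferons act through a complex that holds STAT2 and IRF9 and binds the interferon-stimulated response element, whereas interferon gamma acts mainly through the gamma-activated site. The genes switched on include enzymes that block viral replication, sensors of viral RNA and the machinery that cuts proteins to peptides and shows them on class I molecules at the cell surface. Many cells keep a low level of these transcripts without added interferon.

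Values are deposited variance-stabilised log2 values, given per library as wild-type replicates 1 and 2 and then E79Q replicates 1 and 2. A difference is the mean E79Q value less the mean wild-type value, ± its limma SE (n = 2 pairs), and a gene was called when the limma adjusted p over all 10857 tested genes was under 0.05. The scale has a floor of 6.98 for genes without reads and compresses differences near it, so approximate normalised counts, obtained by inverting the stabilisation, are given as well. These counts summed to between 13.5 M and 13.9 M per library, and raw depths were not at hand. Counts are not divided by transcript length and are compared only within a gene.

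The cells carried squamous epithelial transcripts. All 10 markers of that list, Krt5, Krt14 and Trp63 among them, were tested, and their summed count lay between 139900 and 150100 in the 4 libraries. Krt5 and Krt14 made up most of that sum. Of the 10, 3 were called higher (Dsg3 by 0.74 ± 0.05, Krt6a by 0.67 ± 0.06 and Krt13 by 0.49 ± 0.07), against 21.5% of all genes tested. Another 3 were called lower (Sox2 at -0.45 ± 0.06, Epcam at -0.22 ± 0.04 and Krt14 at -0.13 ± 0.05), against 18.9%. Of 12 immune cell markers 7 were at the floor in every library, including Ptprc, the common leukocyte antigen, and Adgre1 and Cd3e. The summed count of the immune list was 168 to 191 in wild-type and 377 to 415 in E79Q libraries, and nearly all of it was Cd68, a lysosomal protein (184, 164, 370 and 405). Fibroblast markers summed to 417 and 422 in wild-type and to 120 and 129 in E79Q libraries, mostly through the collagen gene Col1a1 (305, 333, 44.9 and 36.7), while Dcn and Thy1 were slightly higher in E79Q libraries, at no more than 10.8 counts. Xist, the non-coding RNA of the inactive X chromosome, had counts of 3809 and 4348 in wild-type libraries and of 6.2 and 1.2 in E79Q libraries, while the Y-linked Ddx3y was present in all 4, at 571, 497, 823 and 934. The part of the squamous, fibroblast and Cd68 transcripts in the results was not tested, and Xist and genotype cannot be told apart here. In bulk RNA, fewer cells of a type and less RNA per cell cannot be told apart either. All 16 NRF2 targets of a list were called higher, against 21.5% of all genes, Nqo1, a quinone reductase, by 2.23 ± 0.06.

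Antiviral and class I transcripts were higher in E79Q cells in 22 of the 31 members that could be tested, led by Rsad2, Oas3, Ifi44 and Irf9, whereas Gbp2, a guanylate-binding protein gene, and Ifit2, an antiviral gene, were lower. Every one of the 39 members lay above the floor in all 4 libraries, but 8 were too low to test: Oas1g, Oas2, Oasl1, Mx1, Mx2, Ifi27l2a, Gbp5 and Zbp1. Of these, Oasl1, Mx1, Ifi27l2a and Gbp5 had libraries below the 3 normalised counts that a floor value allows. A value above the floor does not show that they were expressed there. The 22 called higher compare with 21.5% of all genes tested, and the 2 called lower with 18.9%, so that 24 members were called in either direction against 40.4% of all genes. The other 7 were not called. The median difference of the 31 was 0.23, beside 0.006 over all genes tested. In a wider list of interferon-stimulated genes, 6 of 25 tested were called higher and 4 lower, with a median of -0.02. Because the filter asked for 2 libraries of any group, Ifit3, Oas1a, Oas3, Rtp4 and Gbp3 passed it through the E79Q libraries alone. Among the 26 that reached the same level in a library of each genotype, 18 were called higher and 2 lower, with a median of 0.21. The E79Q values lay wholly above the wild-type values in 26 of the 31, against 41.1% of all genes tested, and wholly below in 4, against 38.1%. Because the deposited values are centred by replicate number, groups lie apart exactly when both pairs differ in the same direction. An exact test of 2 pairs cannot reach a two-sided p below 0.5, and the calls rest on the spread pooled across genes.

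**Figure D1:**
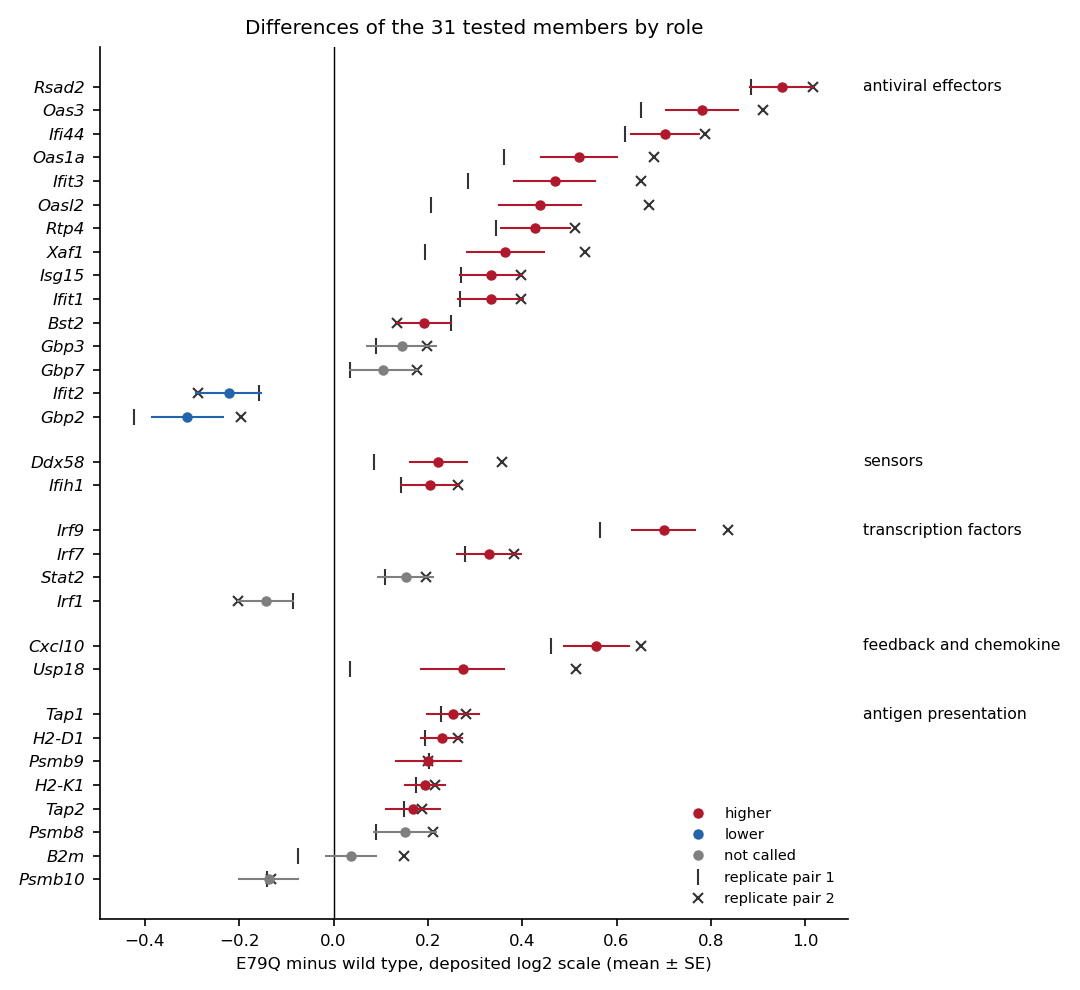
Difference between E79Q and wild type on the deposited log2 scale for the 31 tested members, grouped by role (x axis: mean ± SE over 2 replicate pairs; bar and cross marks: the single pairs; colours: call at a limma adjusted p under 0.05). The differences run from -0.31 in Gbp2 to 0.95 in Rsad2, and antigen presentation genes lie between -0.14 and 0.25.

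No interferon gene was detected at a level that could be compared. Of 12 interferon genes, among them Ifnb1, Ifng, Ifnl2 and Ifnl3, 10 were at the floor in all 4 libraries, and the other two, Ifnk and Ifnz, stayed below the 3 normalised counts that a floor value allows. That allowance is per library and covers counting error only, so a low interferon transcript level was not detectable at this depth.

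Of 15 tested genes of a list of receptors and signalling 2 were called higher and 1 lower, against 21.5% and 18.9% of all genes, with a median of -0.02. Ifngr2, the signalling chain of the interferon gamma receptor, fell by 0.31 ± 0.06 (adjusted p = 0.000501), from counts of 890 and 850.3 to 643 and 675. Ifnar1 and Ifnar2, the chains of the type I receptor, differed by -0.11 ± 0.05 and -0.10 ± 0.06 and were not called (adjusted p = 0.111 and 0.223). Ptpn2, a phosphatase that acts on JAK kinases and STATs, rose by 0.18 ± 0.05 (adjusted p = 0.0137).

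Of the 4 transcription factors among the members, 2 were called higher and 0 lower, against 21.5% and 18.9% of all genes. Irf9, the DNA-binding subunit of the complex, was the clearest. Wild-type libraries stood at 9.19 and 9.05 and E79Q libraries at 9.75 and 9.89, or 359 and 309 counts against 628 and 712. The lowest E79Q library thus held more than the highest wild-type library by a wide margin, and the difference was 0.70 ± 0.07 (adjusted p = 1.01e-06), a 2.01-fold ratio of counts. Irf7, which amplifies interferon production, lay at 8.32, 8.27, 8.60 and 8.65 and rose by 0.33 ± 0.07 (adjusted p = 0.00154), 1.62-fold by count. Stat2 lay at 9.46, 9.42, 9.57 and 9.61. Its groups did not overlap, yet its difference of 0.15 ± 0.06 was not called (adjusted p = 0.0549). It was called without the replicate block (adjusted p = 0.021) and without replicate 1 of wild type (0.0116), replicate 2 of wild type (0.0492) or replicate 1 of E79Q (0.0115). Irf1, a factor induced mainly by interferon gamma, lay at 9.67, 9.72, 9.58 and 9.52, lower in both pairs by 0.09 and 0.20. It was not called at -0.14 ± 0.06 (adjusted p = 0.0706). It was called lower after median centring (adjusted p = 0.0481), after quantile normalization (0.045) and without the replicate block (0.0418). Its difference was -0.173 without replicate 1 of wild type. It was the same without replicate 1 of E79Q, because the deposited values are centred by replicate number.

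Both tested RNA sensors rose by a small amount and were called higher, against 21.5% of all genes tested. Ifih1, which encodes MDA5, a sensor of long double-stranded RNA, lay at 9.17, 9.11, 9.32 and 9.38 and rose by 0.20 ± 0.06 (adjusted p = 0.0188), 1.24-fold by count. Ddx58, which encodes RIG-I, a sensor of RNA with a free triphosphate end, lay at 10.44, 10.30, 10.52 and 10.66 and rose by 0.22 ± 0.06 (adjusted p = 0.0105; 0.0883 without the replicate block). The pairs differed in size for Ddx58, at 0.09 and 0.36. Zbp1, a sensor of Z-form nucleic acid, was too low to test, with counts of 13.2, 8.1, 12.0 and 18.1, and its groups overlapped.

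Among 20 tested genes of a list of further sensors, adaptors and kinases, 5 were called higher and 1 lower, and the median was 0.07 (all genes 0.006). The number called higher was near the 21.5% of all genes. The largest rises were in Ifi204, a DNA-binding protein of the interferon-inducible p200 family (0.41 ± 0.07, adjusted p = 0.000394), and Dhx58, which encodes LGP2, the third RIG-I-like receptor (0.34 ± 0.08, adjusted p = 0.00325). Dhx58 passed the filter through the E79Q libraries alone. Irf5, another interferon regulatory factor, rose by 0.19 ± 0.06 (adjusted p = 0.0241). The one call in the other direction was Samhd1, a nucleotide hydrolase that restricts viruses, which fell by 0.16 ± 0.05 (adjusted p = 0.0224).

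The antiviral effectors held the largest differences. Of 22, 15 were tested, and 11 of these were called higher and 2 lower, with a median of 0.36. All genes tested gave 21.5% and 18.9%. Among the 15, Ifit3, Oas1a, Oas3, Rtp4 and Gbp3 passed the filter through the E79Q libraries alone, and all but Gbp3 were called higher. Rsad2 encodes viperin, an enzyme that makes a chain-terminating nucleotide. Its values were 8.31 and 8.25 without and 9.20 and 9.26 with the mutation, or 116 and 104 counts against 361 and 387. The groups were far apart, with a difference of 0.95 ± 0.07 (adjusted p = 3.05e-08) and count ratios of 3.13 and 3.73 in the 2 pairs. Ifi44, an interferon-induced cytosolic protein, had counts of 61.4, 51.0, 173 and 194. It rose by 0.70 ± 0.07 (adjusted p = 1.97e-06), 2.81-fold in pair 1 and 3.80-fold in pair 2.

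Oligoadenylate synthetases bind double-stranded RNA and make a small messenger that sets off RNA decay. Oas3 had counts of 47.2 and 33.9 in wild-type and of 154 and 184 in E79Q libraries. That is a difference of 0.78 ± 0.08 (adjusted p = 1.2e-06) and a 4.16-fold ratio, the largest count ratio among the tested members, in a gene that passed the filter through the E79Q libraries alone. Oas1a had counts of 50.8, 34.1, 103 and 133 and rose by 0.52 ± 0.08 (adjusted p = 0.000131). Oasl2, a synthetase-like protein, had counts of 167, 118, 219 and 289 and rose by 0.44 ± 0.09 (adjusted p = 0.00112; 0.0645 without the replicate block). Of the untested relatives, Oas1g (8.5, 8.8, 31.3 and 30.7 counts) and Oas2 (9.4, 4.8, 18.1 and 26.5) lay above wild type in both E79Q libraries, and Oasl1 (8.1, 2.5, 6.6 and 14.8) overlapped. Oas1a and Oas1g are close copies, and their reads may be divided between them uncertainly.

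The Ifit genes encode proteins that bind viral RNA ends, and they went different ways. Ifit1 had counts of 125 and 113 in wild-type and of 184 and 200.3 in E79Q libraries, a rise of 0.33 ± 0.07 (adjusted p = 0.0015). Ifit3 rose by 0.47 ± 0.09 (adjusted p = 0.000532), from 36.6 and 21.0 to 70.4 and 98.6. Ifit2 instead had counts of 175 and 191 in wild-type and of 140 and 127 in E79Q libraries. It fell by 0.22 ± 0.07 (adjusted p = 0.0197), with no overlap between the groups. The 3 genes are neighbours in 1 cluster and are related in sequence, so the division of reads among them is uncertain.

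The stretches of DNA upstream of these genes are shown because the Ifit genes differ in direction while Rsad2 rose most. The sequences are from RefSeq promoter windows on GRCm38.p6, which is not the mm9 build named for the data, and each line gives the 160 bases before the annotated start, 5′ to 3′ on the gene's strand. Capitals mark matches of either strand to the core of the interferon-stimulated response element, which reads TTTC, then 2 bases of any kind, then TTTC. Overlapping matches run together.
Rsad2 (chr12:26456453-26456612, minus strand): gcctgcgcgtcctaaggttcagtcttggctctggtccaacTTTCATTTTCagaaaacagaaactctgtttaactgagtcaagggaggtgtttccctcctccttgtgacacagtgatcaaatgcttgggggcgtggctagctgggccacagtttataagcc
Isg15 (chr4:156200819-156200978, minus strand): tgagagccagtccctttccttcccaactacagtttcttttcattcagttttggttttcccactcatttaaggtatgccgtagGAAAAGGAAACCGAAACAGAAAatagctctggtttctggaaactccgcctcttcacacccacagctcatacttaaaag
Ifit1 (chr19:34640729-34640888, plus strand): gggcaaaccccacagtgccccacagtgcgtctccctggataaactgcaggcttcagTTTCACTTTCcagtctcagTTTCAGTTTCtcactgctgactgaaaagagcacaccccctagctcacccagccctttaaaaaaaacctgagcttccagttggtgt
Ifit3 (chr19:34583369-34583528, plus strand): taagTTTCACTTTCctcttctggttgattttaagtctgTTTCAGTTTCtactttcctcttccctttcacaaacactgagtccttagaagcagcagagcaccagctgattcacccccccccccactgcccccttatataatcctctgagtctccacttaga
Ifit2 (chr19:34550534-34550693, plus strand): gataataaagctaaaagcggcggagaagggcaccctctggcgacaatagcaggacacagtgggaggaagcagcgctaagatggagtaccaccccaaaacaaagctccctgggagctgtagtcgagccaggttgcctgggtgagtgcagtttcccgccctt
Gbp2 (chr3:142620503-142620662, plus strand): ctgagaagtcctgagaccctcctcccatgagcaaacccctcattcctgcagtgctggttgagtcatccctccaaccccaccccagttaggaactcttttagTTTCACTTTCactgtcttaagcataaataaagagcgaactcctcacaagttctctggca
The Isg15 stretch held 3 overlapping matches, Ifit1 and Ifit3 held 2 each, Rsad2 and Gbp2 held 1 each, and the Ifit2 stretch held 0. For Ifit2 the table has 2 start sites and only the first is printed, and neither 300-base window has a match. In the full windows, 250 bases before to 50 after the start, 17 of the 31 members with an entry held the motif, against 3.44% of 32851 windows of that length. A member with several annotated starts was counted if any of its windows matched, so its share is not strictly like that of single windows. By call the numbers were 10 of 19 members called higher, 1 of 2 called lower and 4 of 7 not called. The gamma-activated site, spelled TTCNNNGAA with N for any base, was found for 7 of 31 members (8.30% of all windows), and in Bst2 it overlapped a response element match. The antioxidant response element core bound by NRF2 and its partners, spelled TGANNNNGC, was found for 20 of 31 (41.3% of all windows). Among them were 15 of the 19 members called higher, 0 of the 2 called lower and 4 of the 7 not called. The 15 include Psmb9 and Tap1, whose windows share a match. These letters describe the windows and do not show that a factor binds. Oas2, Mx1, Mx2, Ifi27l2a, Usp18, Rtp4, Tap2 and Zbp1 had no entry.

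Isg15, Rtp4, Xaf1 and Bst2 rose by smaller amounts than Rsad2 and Oas3, and so did Usp18, a feedback gene of the same pathway. Isg15, a ubiquitin-like modifier, had counts of 192 and 177 in wild-type and of 269 and 290 in E79Q libraries and rose by 0.33 ± 0.07 (adjusted p = 0.0011). Usp18, which removes that modifier and dampens receptor signalling, had counts of 212, 154, 222 and 295. Its rise of 0.27 ± 0.09 (adjusted p = 0.0239) came almost wholly from pair 2, with 0.03 in pair 1 and 0.51 in pair 2. The call was lost without replicate 2 of wild type (adjusted p = 0.119), without replicate 2 of E79Q (0.12), without the block (0.173), with robust empirical Bayes (0.0814) and without a filter (0.0835). Rtp4, a chaperone of membrane receptors that restrains some viruses, had counts of 48.5, 39.5, 96.6 and 111, a rise of 0.43 ± 0.08 (adjusted p = 0.000338). Xaf1, a pro-apoptotic protein, had counts of 72.5, 50.7, 103 and 135, a rise of 0.36 ± 0.08 (adjusted p = 0.0027). Bst2, tetherin, which holds budding virions at the cell surface, had counts of 596 and 629 in wild-type and of 749 and 712 in E79Q libraries, a rise of 0.19 ± 0.06 (adjusted p = 0.0167). The GTPase genes Mx1 and Mx2 had at most 15.5 counts in any library, and Ifi27l2a at most 9.5 with overlapping groups.

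Guanylate-binding proteins are GTPases that attack pathogen compartments and are induced strongly by interferon gamma. None of their 3 tested genes was called higher, against 21.5% of all genes tested. Gbp2 was called lower, against 18.9%. A list of 3 genes is too short to be told apart from those shares. Gbp2 had counts of 123 and 103 in wild-type and of 56.8 and 71.7 in E79Q libraries. It fell by 0.31 ± 0.08 (adjusted p = 0.00477), a 1.76-fold lower count, without overlap. Gbp3 and Gbp7 lay slightly above wild type, at 0.14 ± 0.08 and 0.11 ± 0.07, and were not called (adjusted p = 0.141 and 0.269). Gbp3 was called higher without the replicate block (adjusted p = 0.0385) and without replicate 1 of wild type (0.0375) or of E79Q (0.04). Gbp5 had at most 9.2 counts. These genes also stand in a cluster of close relatives.

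**Figure D2:**
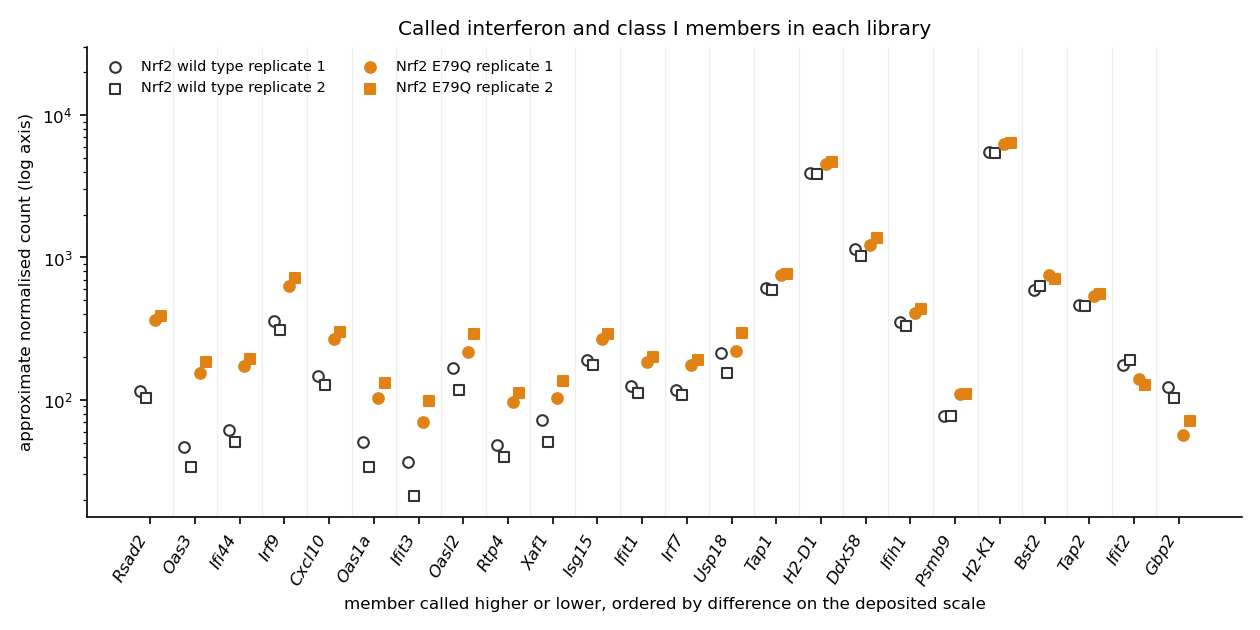
Approximate normalised count in each of the 4 libraries (log axis) for the 24 members called higher or lower, ordered by their difference on the deposited scale; open symbols are wild type and filled symbols E79Q, circles replicate 1 and squares replicate 2. E79Q symbols lie above the wild-type symbols for the first 22 genes and below them for Ifit2 and Gbp2, and heights should not be compared between genes.

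Cxcl10, a chemokine that draws activated T cells, was the one chemokine among the members. Its values were 8.47 and 8.38 without and 8.93 and 9.03 with the mutation, or 147 and 128 counts against 269 and 300.2. The difference was 0.56 ± 0.07 (adjusted p = 1.53e-05), a 2.07-fold ratio. The related Cxcl9 was at the floor in every library.

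A wider list of 45 interferon-stimulated genes that are not members moved in both directions. Of 25 tested, 6 were called higher and 4 lower, with a median of -0.02. The largest rises were in Lgals3bp, a secreted glycoprotein (0.38 ± 0.08, adjusted p = 0.00089), Cmpk2, a nucleotide kinase beside Rsad2 in the genome (0.32 ± 0.08, adjusted p = 0.00319), and Cd274, the checkpoint ligand PD-L1 (0.29 ± 0.08, adjusted p = 0.0104; 0.0655 without the replicate block). Lgals3bp and Cmpk2 passed the filter through the E79Q libraries alone. The largest falls were in Ifitm3 and Ifitm2, membrane proteins that block virus entry, by 0.33 ± 0.05 and 0.23 ± 0.06 (adjusted p = 0.000116 and 0.00417), and in Slfn9, by 0.30 ± 0.06 (adjusted p = 0.00091). Ifitm3 went from counts of 2018 and 1919 to 1478 and 1556. The share called higher in this list, 6 of 25, was near the 21.5% of all genes, of which 18.9% were called lower.

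In class I antigen presentation the classical heavy chain genes, both genes of the peptide transporter and Psmb9 rose, and the other genes of the route included rises, falls and genes that were not called. All 8 members of this role were tested, 5 were called higher and 0 lower, with a median of 0.18. All genes tested gave 21.5% and 18.9%. H2-K1 and H2-D1, the classical class I heavy chains of this strain, lay at 12.49, 12.47, 12.66 and 12.68 and at 12.03, 12.00, 12.23 and 12.26. For each gene both E79Q libraries lay above both wild-type libraries, with rises of 0.19 ± 0.04 (adjusted p = 0.00256) and 0.23 ± 0.05 (adjusted p = 0.000967), 1.15-fold and 1.18-fold by count. B2m, the light chain that pairs with every class I heavy chain, lay at 11.48, 11.37, 11.40 and 11.52. Its groups overlapped and its difference was 0.04 ± 0.06 (adjusted p = 0.628).

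Of the other class I heavy chain genes, H2-Q7 rose most, by 0.52 ± 0.07 (adjusted p = 2.28e-05), from counts of 116 and 125 to 252 and 239. H2-Q4, H2-M3 and H2-T23 rose by 0.21 ± 0.06, 0.21 ± 0.07 and 0.20 ± 0.06 (adjusted p = 0.00831, 0.0276 and 0.0107), and H2-T22 was not called (0.05 ± 0.07). The H2 genes are near-identical over long stretches, so the counts of single genes are uncertain.

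Tap1 and Tap2 form the transporter that carries peptides into the endoplasmic reticulum. Tap1 had counts of 609 and 594 in wild-type and of 750.4 and 768 in E79Q libraries, a rise of 0.25 ± 0.06 (adjusted p = 0.0024). Tap2 had counts of 466, 458, 540.3 and 549.9 and rose by 0.17 ± 0.06 (adjusted p = 0.0346; 0.0602 after median centring and 0.0589 without a filter). Tap1 shares its upstream DNA with Psmb9, which is read in the other direction. Psmb9 encodes an immunoproteasome subunit and had counts of 77.3, 77.4, 110.2 and 110.1, a rise of 0.20 ± 0.07 (adjusted p = 0.0347; 0.0522 after median centring and 0.0602 without a filter). The 225 bases between the annotated starts of the pair are shown because the stretch lies between 2 genes that were both called higher. They run from the Psmb9 side to the Tap1 side in this RefSeq GRCm38.p6 sequence. Neither the response element core nor TTCNNNGAA was found in it. The antioxidant response element core was found in the promoter window of each gene, against 41.3% of all windows. The stretch holds a match to that core on the opposite strand, printed here as gccccatca. Both windows contain this stretch, so the same site counts for each gene.
Psmb9 and Tap1 (chr17:34187331-34187555, plus strand): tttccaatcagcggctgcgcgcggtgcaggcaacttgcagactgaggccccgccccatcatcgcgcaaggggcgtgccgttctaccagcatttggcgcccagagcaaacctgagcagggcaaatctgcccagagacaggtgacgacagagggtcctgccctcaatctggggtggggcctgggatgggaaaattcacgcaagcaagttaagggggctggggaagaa

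Immunoproteasome subunits replace the constitutive catalytic subunits and favour peptides that bind class I molecules. Of the 3, Psmb9 alone was called. Psmb8 had counts of 215, 199, 241 and 259, a difference of 0.15 ± 0.07 (adjusted p = 0.0883; 0.0406 without the replicate block, 0.0177 without replicate 1 of wild type and 0.018 without replicate 1 of E79Q). Psmb10 had counts of 269.9 and 268.5 in wild-type and of 227 and 229 in E79Q libraries. Its groups were apart in the downward direction, at -0.14 ± 0.07, and it was not called (adjusted p = 0.107; 0.00657 without the replicate block). Of the constitutive counterparts, Psmb6 fell by 0.14 ± 0.05 (adjusted p = 0.0433), while Psmb7 and Psmb5 were not called, at -0.12 ± 0.05 and -0.02 ± 0.05 (adjusted p = 0.0688 and 0.804). Without replicate 2 of wild type or of E79Q the calls of Psmb6 (adjusted p = 0.076 and 0.0698) and Psmb7 (0.0149 and 0.0129) changed sides. That of Psmb6 was also lost without the block (adjusted p = 0.0647), without a filter (0.0892) and without the mean-variance trend (0.0891). Psmb7 was also called lower without the block (adjusted p = 0.0369), after median centring (0.0313) and after quantile normalization (0.019). Psme1 and Psme2, the 2 subunits of the interferon-inducible proteasome activator PA28, both fell, by 0.20 ± 0.06 and 0.16 ± 0.06 (adjusted p = 0.0111 and 0.0274). The call of Psme2 was lost without a filter (adjusted p = 0.0561).

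Of the loading chaperones, some rose and some fell. Tapbp, tapasin, which bridges the transporter and the class I molecule, fell by 0.24 ± 0.05 (adjusted p = 0.00103), from counts of 2946 and 2891 to 2419 and 2466. Its relative Tapbpl, a peptide editor outside the transporter complex, rose by 0.34 ± 0.06 (adjusted p = 0.000248), from 563 and 543 to 745 and 771. Canx, calnexin, a chaperone of new glycoproteins, rose by 0.21 ± 0.04 (adjusted p = 0.0014), and Calr, Pdia3 and Erap1 were not called. Over the 14 tested genes of the list of loading factors and further heavy chains, 6 were called higher and 3 lower, with a median of 0.05. All genes gave 21.5% and 18.9%, and the number called lower was near that share. Of the class II genes, Cd74, the invariant chain, and H2-DMb1 were the 2 tested, and both rose by 0.21 ± 0.08 (adjusted p = 0.0366 and 0.0339), Cd74 having passed the filter through the E79Q libraries alone. Neither call held after median centring (adjusted p = 0.0508 and 0.053) or without a filter (0.0659 and 0.0732). That of H2-DMb1 was also lost without the block (adjusted p = 0.0672) and without replicate 1 of wild type (0.0553) or of E79Q (0.0587). Ciita, the class II regulator, had at most 0.51 counts.

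**Figure D3:**
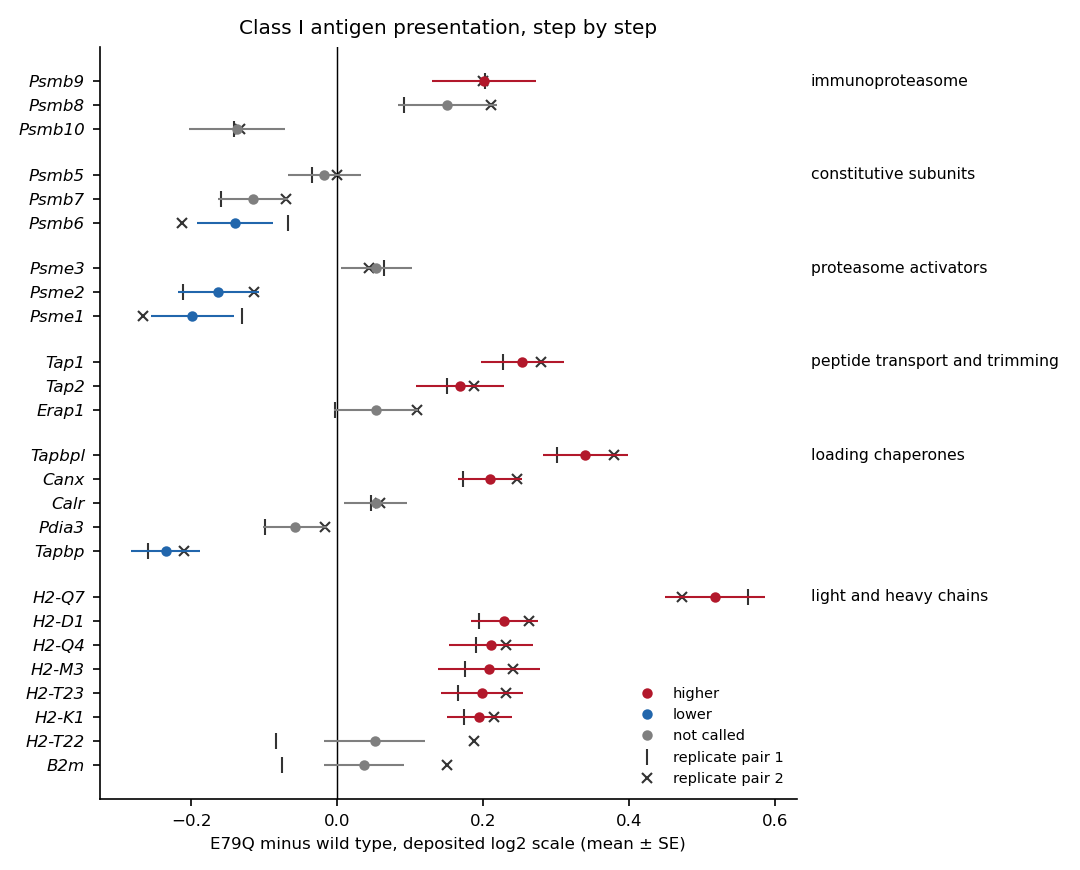
Difference between E79Q and wild type on the deposited log2 scale (x axis: mean ± SE over 2 replicate pairs; bar and cross marks: single pairs) for class I genes ordered along the route from proteasome to heavy chain, with colours for the call. Transporter and most heavy chain genes lie to the right of 0, Psme1, Psme2, Tapbp and Psmb6 to the left, and B2m at 0.04.

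The size of the difference varied between the replicate pairs. It was larger in pair 2 than in pair 1 in 20 of the 22 members called higher, Bst2 and Psmb9 being the exceptions, against 71.8% of the 2333 genes called higher in the whole table. The gap was wide in Usp18 (0.03 and 0.51), Oasl2 (0.21 and 0.67), Ifit3 (0.29 and 0.65) and Xaf1 (0.20 and 0.53), and narrow in Rsad2 (0.89 and 1.02), H2-K1 (0.17 and 0.22) and Tap1 (0.23 and 0.28). All 22 differences come from the same 4 libraries. The deposited values are centred by replicate number, so whether a wild-type or an E79Q library set the gap cannot be told apart.

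**Figure D4:**
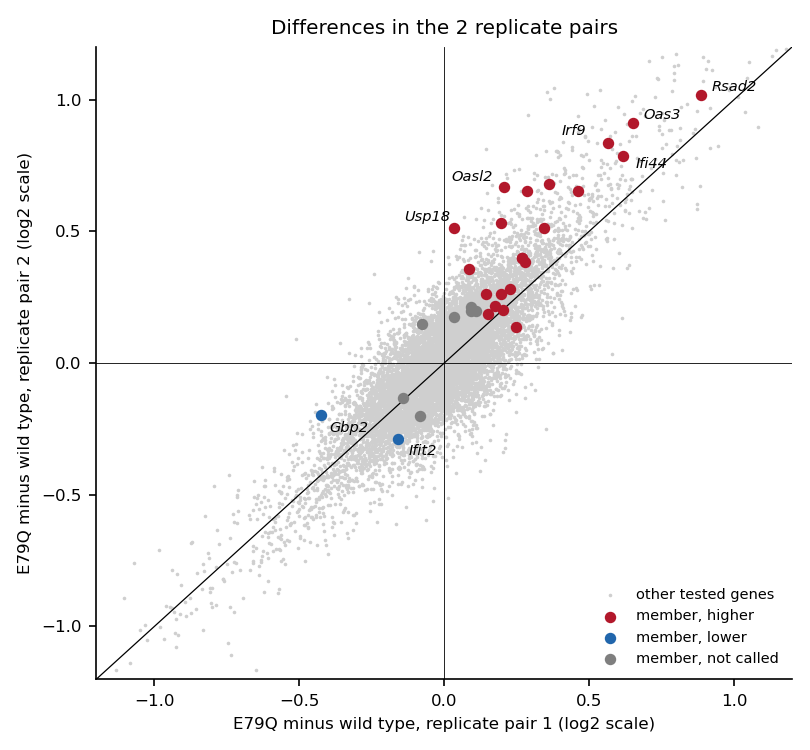
Difference between E79Q and wild type in replicate pair 1 (x axis) and pair 2 (y axis), log2 scale, for all tested genes (grey) and the 31 tested members (coloured by call), with the line of equal differences; 60 tested genes lie outside the axes. Most members called higher lie above the line, as Usp18 does at 0.03 and 0.51, and Gbp2 and Ifit2 lie below 0 in both pairs.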

How the data were processed

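Per the labels' protocols, TRIzol RNA went into NEBNext Ultra libraries. Tools in the submitters' processing notes, with no role, are DESeq2, DESeq 1.22.2, Salmon 0.11.3 and STAR 2.5.2b, and the build is mm9; strand and annotation are not stated there. The series' design text describes a human line and was set aside, since the title and all sample labels speak of these mouse cells. The deposited values are variance-stabilised log2 values of 24444 genes, from 6.90 to 18.7, normalised by the authors. Adding the wild-type and E79Q value gives the same total for replicate 1 and replicate 2 in all 24444 genes (largest gap 1.31e-13). They were thus centred on the replicate number before deposit, a step no label records, and this pairs the libraries. Genes entered the fit where 2 or more libraries exceeded the table's minimum by 1 or more (10857 genes, about 53 normalised counts). The fit was limma 3.58.1 in R 4.3.3, with genotype and a replicate block (1 residual degree of freedom), a mean-variance trend, two-sided tests and Benjamini-Hochberg adjustment. The prior had 14.6 degrees of freedom, so most precision is borrowed across genes. Counts were approximated by inverting the stabilisation from the floor, with values at or under it set to 0. The script was tested on simulated data. Members and lists were chosen with earlier results of these data known. All members are accounted for. Of the other lists, the 3 largest called rises and falls are named, and any member of lists with 8 or fewer tested genes; further genes named beside them were chosen after their values were seen. Values of some listed genes are not reported here. The 14 alternatives cover the block, filters, scaling, variance model, pseudocounts of 1 and 10, and each library left out.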

Additional observations from a re-analysis of the deposited data

How the results depend on the processing

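With the replicate block, limma called 22 members higher, 2 lower and 4388 genes in all. Without the replicate block, which counts a degree of freedom that the centring has used, 22 members were called higher (Gbp3, Stat2 and Psmb8 in place of Oasl2, Ddx58 and Usp18) and 4 lower (Irf1 and Psmb10 added) and 6004 genes in all. A stricter filter, at least 2 above the lowest value, tested 15 members, of which 11 were called higher and 0 lower; Ifit2 and Gbp2 were not tested there, and all 15 kept their call. Because of the centring, leaving out either library of a replicate number gives the same difference, so such fits are not separate checks. Fits with 1 library left out used genotype alone, because a blocked fit of 3 libraries has no residual degree of freedom, and assume that the lone library of a group varies like the other group. They called between 21 and 25 members higher, between 2 and 3 lower, and between 5008 and 5463 genes. B2m changed sign to -0.0195 without replicate 2 of wild type and without replicate 2 of E79Q, where it was not called, and its other values with a library left out reached 0.0933. Of the members called higher, 17 of 22 kept their call in every alternative that tested them, as did both called lower; the exceptions were Usp18, Oasl2, Ddx58, Psmb9 and Tap2. Of the 7 not called, Gbp7 alone kept that side of the threshold and its sign throughout. The 8 members under the filter have no test in the fit reported. The causes of these changes were not tested.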
